A study of Mus musculus with 6 samples.

Results

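The TIMPs (tissue inhibitors of metalloproteinases) and the matrix metalloproteinases (MMPs) most often named with them in vessel walls were examined in sorted blood endothelial cells of the mouse intestine. The 9 genes were the inhibitors Timp1, Timp2, Timp3 and Timp4, the proteases Mmp2, Mmp9, Mmp14 and Mmp15, and the membrane-anchored inhibitor Reck. They were chosen by gene symbol, with the differences between the groups on these arrays already known, and 8 of the 9 had a probe set of their own. Mmp15 is not analysed here. Where a gene has several probe sets, the rule takes the one with the highest mean over all 6 arrays, but each of these 8 genes had 1. All 8 lay above background on each of the 6 arrays, among 15312 genes above background and 22180 genes with a probe set.

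The arrays compared endothelium beside an epithelium that had lost Apc, a brake on Wnt signalling, with endothelium of control mice. Adult mice of a mixed C57BL/6 x 129 background were used throughout, and both groups received tamoxifen every day for 5 days before the intestine was taken on day 6. The labels give floxed Apc alleles (Apcfl//fl) for both groups, and the knockout mice also carried Villin-CreERT2. This is a tamoxifen-activated recombinase under the villin promoter, which drives expression in the gut epithelium and not in endothelium. The control mice are labelled WT, Apcfl//fl, with no recombinase named. Each group has 3 arrays, and the sample titles do not say how many mice gave each array. Cells were sorted as live CD31+ cells without CD45, EpCAM or gp38, and their RNA was amplified before hybridisation to Affymetrix Mouse Gene 2.0 ST arrays.

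MMPs are zinc-dependent proteases that cut collagens, laminins and other proteins of the matrix, and most are secreted as inactive proenzymes. TIMPs bind the active site of MMPs and block it, and Timp3 also binds to the matrix and inhibits several ADAM and ADAMTS proteases. Mmp14, a membrane-anchored protease, activates the Mmp2 proenzyme with the help of Timp2 on the cell surface. Endothelial cells use these enzymes when they remodel their basement membrane, and Timp1 is known as the family member that cytokines and growth factors readily induce.

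The values are log2 signals after RMA, a background correction, normalization between arrays and summary over probes. Differences are knockout minus control on this log2 scale, with the standard error (SE) of a linear model fitted by limma to all 15312 genes. A gene is said to have risen or fallen where the Benjamini-Hochberg adjusted p was under 0.05. By this rule 393 genes differed, or 2.57% of those tested, with 168 (1.10%) higher and 225 (1.47%) lower in the knockout. The groups did not overlap for 3376 genes, which is 22.0%. The labels call the arrays biological replicates. The p-values set each difference against the spread between these 3 and 3 arrays, which limma draws towards a trend over all genes tested.

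Transcripts of blood endothelium were high on all 6 arrays. The 10 blood endothelial markers averaged between 10.43 and 10.50 on the knockout arrays and between 10.47 and 10.59 on the control arrays, and Pecam1, which encodes CD31, had a mean of 11.43 in both groups. Of the 10, 1 fell (Cldn5, a tight junction protein, adjusted p = 0.0137), against 1.47% of all genes, and none rose (against 1.10%). The arrays differed in transcripts of other cells. Epithelial markers averaged 6.45 on control 1, 8.26 on control 2 and 7.93 on control 3, against 5.15 to 5.57 on the knockout arrays. Control 1 thus lay above every knockout array and below the other controls. Epcam, whose protein the sort excluded, read 3.87, 7.20 and 6.24 on controls 1 to 3, and 3.74 to 3.81 in the knockout. The highest single epithelial value was that of Fabp2, 11.85 on control 2, above the Pecam1 mean. The fibroblast mean was highest on control 1, at 6.56, and so was the mural mean, at 8.88. Markers of mural cells, the smooth muscle cells and pericytes that wrap vessels, averaged 7.71 to 8.08 in the knockout and 8.57 to 8.88 in the controls. All 10 of them were lower on every knockout array than on any control array, and 6 fell. Of the 10 epithelial markers, 9 were likewise lower without overlap, and 5 fell. Over all genes, 22.0% had no overlap and 1.47% fell. Markers of T and NK cells averaged 4.40 to 4.70 against 4.98 to 5.95. In bulk samples, fewer cells of a type and less RNA per cell cannot be told apart.

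Timp1 was the one gene of the 8 that rose, and none fell. Its log2 value was 7.22, 7.21 and 7.62 on knockout arrays 1 to 3, and 5.83, 5.99 and 5.24 on control arrays 1 to 3. All 3 knockout values lay above all 3 control values, and the lowest knockout array exceeded the highest control array by more than the range within either group. The means were 7.35 ± 0.24 and 5.69 ± 0.39 (SD, n = 3 each). The difference was 1.66 ± 0.21 (SE), a 3.17-fold higher signal with a 95% confidence interval of 2.27 to 4.41 (limma, adjusted p = 0.00789). It stood at rank 11 among the rises of all 15312 genes. The gene was picked with this result known, so the p-value describes the difference and is not independent evidence for it.

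Against control 1 alone, the control with the fewest epithelial transcripts, the difference in Timp1 was 1.52, and the call was lost (adjusted p = 0.0583). With any single array left out it lay between 1.44 and 1.82, with adjusted p between 0.00739 and 0.0437. None of the marker lists of other cells separated the groups in the direction of Timp1. The macrophage list averaged 6.02 to 6.34 in the knockout and 5.83 to 6.20 in the controls, and the fibroblast list 5.78 to 6.35 and 6.18 to 6.56. The B and plasma cell list averaged 8.19 to 9.22 and 8.07 to 8.45, and the lymphatic endothelial list 5.11 to 5.84 and 4.93 to 5.38. Both overlapped between the groups and were highest on knockout 3, as Timp1 was. Of 9 neutrophil markers, 7 lay below background. Lyve1, a marker of lymphatic endothelium, rose by 1.13 ± 0.23 (adjusted p = 0.0406, passing in 7 of 15 alternatives), while Prox1, which defines that lineage, lay near background at 4.42 and 4.37. Pdpn, which encodes the gp38 that the sort excluded, was at 5.11 and 5.41 and differed by -0.30 (adjusted p = 0.461). Mmrn1 differed by 0.32 (adjusted p = 0.852) and Reln by 0.18 (adjusted p = 0.754). Both were highest on knockout 3, at 6.42 and 5.43. Of the 5 lymphatic markers, 4 had a positive difference and 1 a negative one. The part of these markers in the Timp1 difference was not tested.

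**Figure D1:**
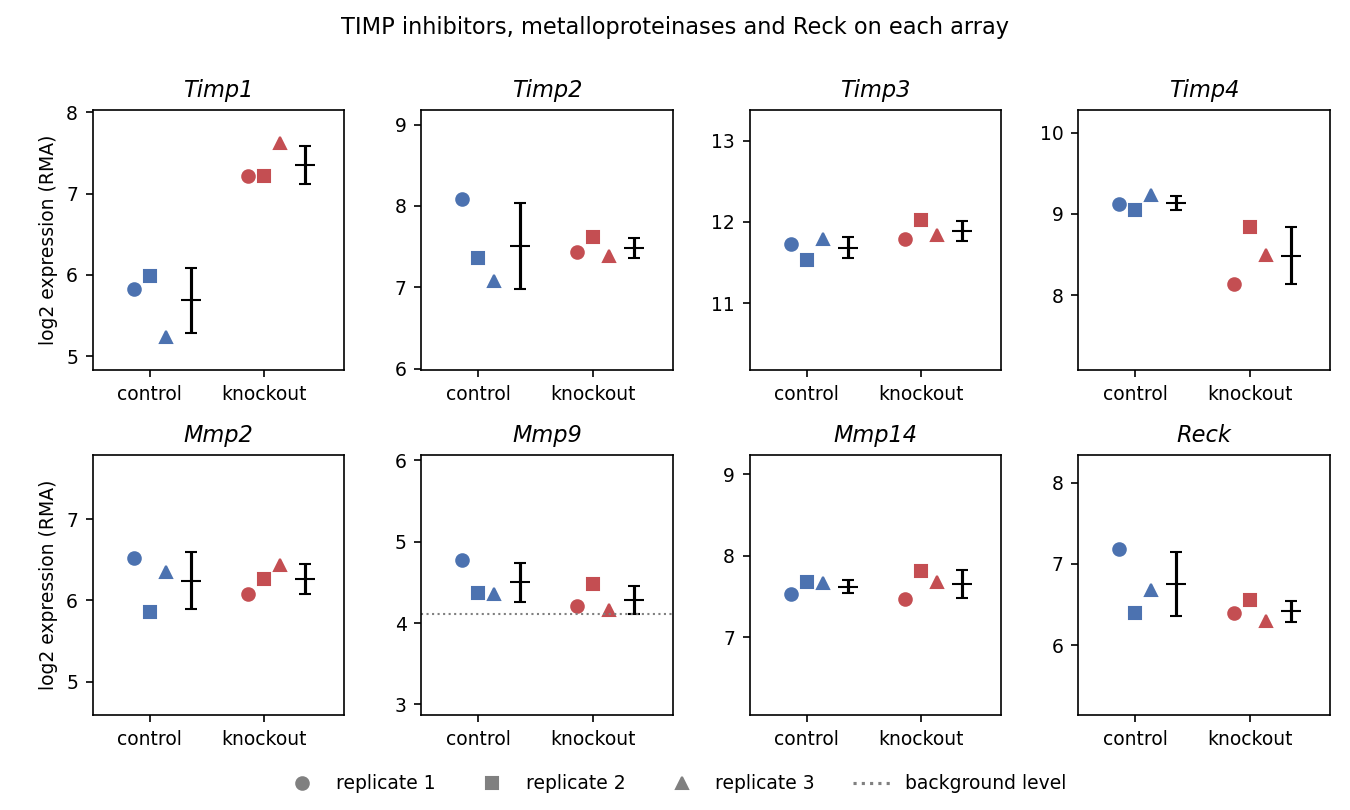
Log2 signal (vertical axis, each panel on its own scale) of the 8 measured genes on each of the 3 knockout and 3 control arrays. Points are arrays, shaped by replicate number, bars are group means ± SD, and the dotted line in the Mmp9 panel is the background level of 4.11. Every panel spans the same number of log2 units. For Timp1 and Timp4 the groups do not overlap, with Timp1 higher and Timp4 lower in the knockout. The other 6 genes overlap between the groups, and 22.0% of all genes tested have no overlap.

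Timp1 lies on chromosome X at 20870166 to 20874737 on the plus strand (GRCm38.p6). It sits inside the span of Syn1, a synapsin gene of neurons that is read from the opposite strand. Timp4 lies inside Syn2, also on the opposite strand, and Timp3 lies inside the span of Syn3. The synapsin genes were looked at after the values were seen, because of this position. Syn1 differed by -0.10 ± 0.13 (adjusted p = 0.776), Syn2 by 0.23 ± 0.19 (0.603) and Syn3 by less than its SE of 0.21 (adjusted p = 1.00). None of these host genes passed the test in either direction. A link between the host genes and the inhibitors was not tested.

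The 250 bases before the gene start are shown for Timp1, the gene that rose, and for Timp4, the other gene whose groups did not overlap. Timp4 did not pass the test, and 22.0% of all genes had no overlap. They are RefSeq sequences of GRCm38.p6, each written 5′ to 3′ on the gene's own strand. Capitals mark GGAA or its reverse complement TTCC, the core that ETS factors bind, and ACGTG, the core of the hypoxia response element.
Timp1, chrX:20869916-20870165, plus strand: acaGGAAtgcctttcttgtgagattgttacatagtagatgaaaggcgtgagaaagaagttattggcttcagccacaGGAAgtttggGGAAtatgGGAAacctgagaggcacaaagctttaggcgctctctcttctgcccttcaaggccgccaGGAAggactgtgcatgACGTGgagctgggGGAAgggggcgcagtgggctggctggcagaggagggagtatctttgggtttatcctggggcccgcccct
Timp4, chr6:115252206-115252455, minus strand: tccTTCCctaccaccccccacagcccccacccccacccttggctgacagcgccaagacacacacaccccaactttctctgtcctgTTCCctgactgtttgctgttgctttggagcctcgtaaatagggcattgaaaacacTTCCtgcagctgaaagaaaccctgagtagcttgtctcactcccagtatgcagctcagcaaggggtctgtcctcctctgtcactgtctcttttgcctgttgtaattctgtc

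Both strands were searched in these windows, which were at hand for 7 of the 9 genes (not Mmp2 and Mmp9). The Timp1 window held 6 copies of GGAA, all on the strand printed, and 8.69% of 32851 mouse windows of this length hold 6 or more. The Timp4 window held 3, all as TTCC, and 54.7% of windows hold 3 or more. The other windows held 4 (Mmp14), 3 (Timp3), 2 (Timp2), 2 (Reck) and 1 (Mmp15). ACGTG occurred once in Timp1, starting 82 bases before the gene, and once in Mmp14, and 16.6% of windows hold it. The letters TGANTCA and TGAGTAA (AP-1 sites, found in 6.75% and 2.25% of windows) and TTCNNNGAA (a STAT site, 7.02%) were in none of the 7 windows. CG pairs numbered 6 in Timp1 and 2 in Timp4, against 10 in Mmp14, 14 in Mmp15, 18 in Timp3, 19 in Reck and 21 in Timp2, with a median of 6 over all windows. A match of letters is a description of the sequence and not a bound site.

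Of the other inhibitors, Timp4 came nearest to the threshold, with the opposite sign. Timp4 encodes an inhibitor with a narrow tissue range that includes heart and fat, and the gene lies on chromosome 6 at 115244444 to 115252205 (minus strand). Its log2 value was 8.13, 8.83 and 8.49 on the knockout arrays and 9.12, 9.05 and 9.23 on the controls. The 3 controls were close together, and knockout 2 lay nearest to them without reaching them. The difference was -0.65 ± 0.16 (95% confidence interval -1.01 to -0.29, adjusted p = 0.0709), and it did not pass the test. Timp1 and Timp4 were the 2 genes of the 8 whose groups did not overlap, where 22.0% of all genes had no overlap.

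Timp4 passed the test in 3 of its 15 alternatives, namely with a stricter filter on dim genes (adjusted p = 0.0456), with array weights (-0.70, adjusted p = 0.0452) and without knockout 2 (-0.82, adjusted p = 0.0336). The mural, epithelial and T and NK cell lists were lower in the knockout, as Timp4 was. On the knockout arrays 1 to 3 the epithelial list averaged 5.15, 5.57 and 5.42, the same order as Timp4. The T and NK cell list averaged 4.40, 4.67 and 4.70, lowest on knockout 1 as Timp4 was, and the mural list 8.08, 7.93 and 7.71, highest there. On controls 1 to 3 the epithelial list averaged 6.45, 8.26 and 7.93 and the T and NK cell list 5.30, 5.95 and 4.98. Both were highest on control 2, where Timp4 was lowest at 9.05. The mural list averaged 8.88, 8.57 and 8.61 there, lowest on control 2 as Timp4 was. Against control 1 alone the difference in Timp4 was -0.64 (adjusted p = 0.408). The part of these cells in the Timp4 values was not tested.

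Timp3, the matrix-bound inhibitor, lies on chromosome 10 at 86300412 to 86349505 (plus strand). Its log2 value was 11.79, 12.02 and 11.84 in the knockout and 11.73, 11.54 and 11.79 in the controls. Knockout 1 and control 3 met at the edge of both groups. The difference was 0.20 ± 0.081 (95% confidence interval 0.014 to 0.38), with an unadjusted p of 0.0375 and an adjusted p of 0.264. Without control 2 it was 0.12 (adjusted p = 0.503).

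Timp2, which both inhibits Mmp2 and helps to activate it, lies on chromosome 11 at 118301061 to 118355411 (minus strand). It read 7.43, 7.62 and 7.39 on the knockout arrays and 8.09, 7.35 and 7.08 on the controls. The controls spanned more than the knockout arrays and enclosed all of them. The difference was -0.027 ± 0.23 (95% confidence interval -0.54 to 0.49, adjusted p = 0.971). Reck, a membrane-anchored inhibitor of Mmp2, Mmp9 and Mmp14, lies on chromosome 4 at 43875521 to 43944806 (plus strand). It read 6.40, 6.56 and 6.30 in the knockout and 7.18, 6.40 and 6.68 in the controls. Control 1 was the highest array, control 2 lay among the knockout values, and the difference was -0.33 ± 0.20 (-0.78 to 0.11, adjusted p = 0.458).

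None of the 3 measured proteases passed the test. Mmp14, the membrane protease that activates Mmp2, lies on chromosome 14 at 54431598 to 54442456 (plus strand). It read 7.47, 7.81 and 7.68 in the knockout and 7.53, 7.67 and 7.66 in the controls. The control values lay inside the knockout range. The difference was 0.034 ± 0.12, and its 95% confidence interval of -0.24 to 0.30 leaves room for a fold change of at most 1.23 upward.

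Mmp2, gelatinase A, which cuts type IV collagen and gelatin, lies on chromosome 8 at 92827290 to 92853421. It read 6.08, 6.27 and 6.44 in the knockout and 6.53, 5.85 and 6.35 in the controls. The groups overlapped over most of their range, and the difference was 0.020 ± 0.19 (-0.42 to 0.46, adjusted p = 0.974). Mmp9, gelatinase B, which is abundant in neutrophils, lies on chromosome 2 at 164940326 to 164955850. It read 4.21, 4.49 and 4.16 in the knockout and 4.78, 4.37 and 4.35 in the controls, close to the background level of 4.11. Its difference was -0.21 ± 0.16 (-0.58 to 0.15, adjusted p = 0.575), and so near to background a change can be understated. Without control 1 it was -0.075.

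The 8 genes thus held 1 rise (against 1.10% of all genes), 0 falls (against 1.47%) and 7 without a call. By limma, 3 had an unadjusted p under 0.05, namely Timp1, Timp3 and Timp4, where 2514 of all genes (16.4%) had one. Signs were split, with 4 positive and 4 negative differences. Their median difference was -0.0033, beside -0.017 over all genes tested. The arrays were not alike across the family, since control 1 was the highest array for 4 of the 8 genes, Timp2, Mmp2, Mmp9 and Reck. Without control 1 the difference in Timp2 was 0.26 and that in Reck was -0.12, and neither passed the test.

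**Figure D2:**
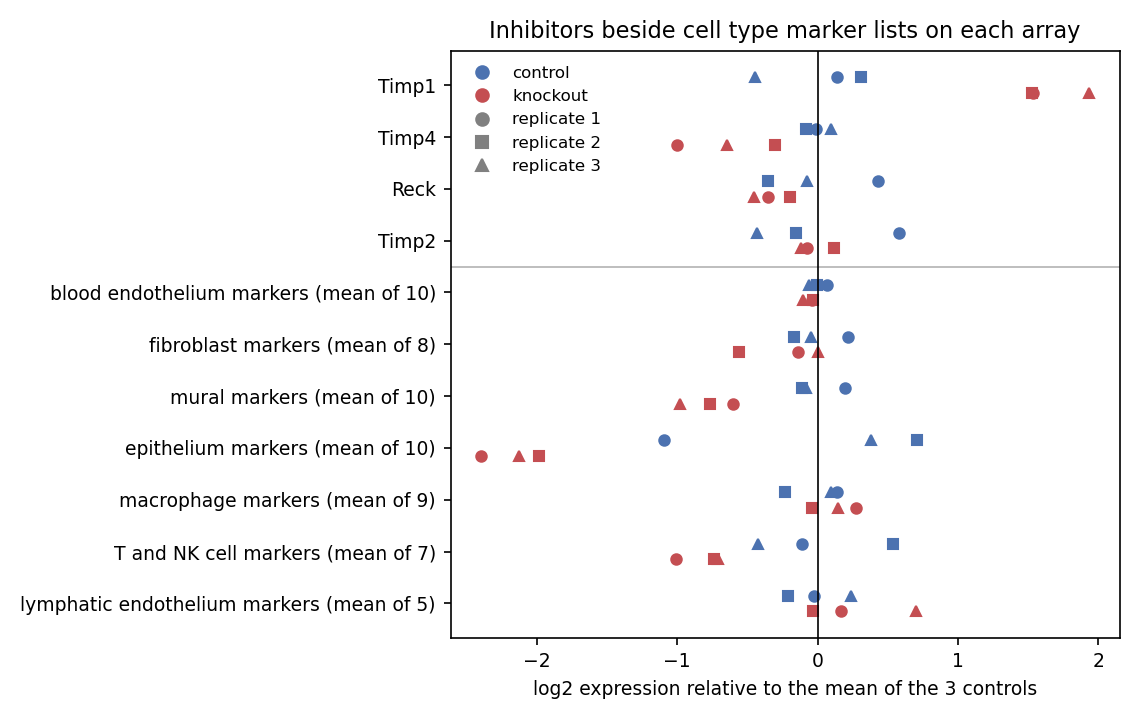
Log2 values on the 6 arrays relative to the mean of the 3 controls (horizontal axis), for Timp1, Timp4, Reck and Timp2 and for the means of 7 cell type marker lists, with colour for the group and shape for the replicate number. Timp1 is higher on the knockout arrays, while the mural and epithelial means are lower there, as Timp4 is, and controls 2 and 3 have the highest epithelial means.

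The genes whose values over the 6 arrays lay closest to those of Timp1 were ranked by the root mean square difference of log2 values, each centred on its own control mean. The nearest was Adamts9, a secreted metalloprotease that cuts proteoglycans, at a distance of 0.163. Its log2 value was 9.28, 9.25 and 9.43 in the knockout and 7.64, 7.81 and 7.48 in the controls. The difference was 1.67 ± 0.11, or 3.19-fold (adjusted p = 0.000344).

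Next came Chrm2, a muscarinic acetylcholine receptor, at 0.233, with a rise of 1.48 ± 0.099. Ednrb, an endothelin receptor, followed at 0.25, with a rise of 1.36 ± 0.18 (adjusted p = 0.00932). Plaur, the urokinase receptor, stood at 0.333, and Stc1, which encodes the secreted glycoprotein stanniocalcin, at 0.336 with a rise of 1.32 ± 0.12 (adjusted p = 0.00216). Among the controls, array 3 was the lowest and array 2 the highest for Timp1, Adamts9, Chrm2, Ednrb and Stc1, but not for Plaur, for which array 3 was the highest. Closeness over 6 arrays of 2 groups is mostly a likeness in the size of the difference.

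Beyond these proteases, 19 further MMP genes had a probe set, and 11 lay above background. None rose or fell by limma (against 2.57% of all genes), and 2 of the 11 had an unadjusted p under 0.05 (against 16.4%). These were Mmp10, stromelysin 2, and Mmp11, stromelysin 3. Mmp10 read 6.62, 6.30 and 6.49 in the knockout and 6.13, 5.47 and 5.51 in the controls, with a difference of 0.77 ± 0.20 (adjusted p = 0.0829). All knockout values were higher, with control 1 the nearest of the controls. It passed the test without control 1, at 0.98 (adjusted p = 0.0191), and was at 0.34 (adjusted p = 0.627) against control 1 alone.

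Mmp11 read 6.60, 6.63 and 6.57 in the knockout and 7.13, 7.01 and 6.82 in the controls, with a difference of -0.39 ± 0.12 (adjusted p = 0.159). The other 9 above background were Mmp16, Mmp17, Mmp19, Mmp21, Mmp23, Mmp24, Mmp25, Mmp27 and Mmp28, with differences from -0.24 (Mmp28) to 0.14 (Mmp19). The 8 below background were Mmp1a, Mmp1b, Mmp3, Mmp7, Mmp8, Mmp12, Mmp13 and Mmp20, which include the collagenases and matrilysin. This was judged on the mean of 6 arrays, and Mmp13, a collagenase, read 4.72, 3.52 and 4.20 in the knockout, above the level of 4.11 on 2 arrays, and 3.26, 3.60 and 3.62 in the controls. It was not tested. The median difference of the 11 was -0.0079.

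**Figure D3:**
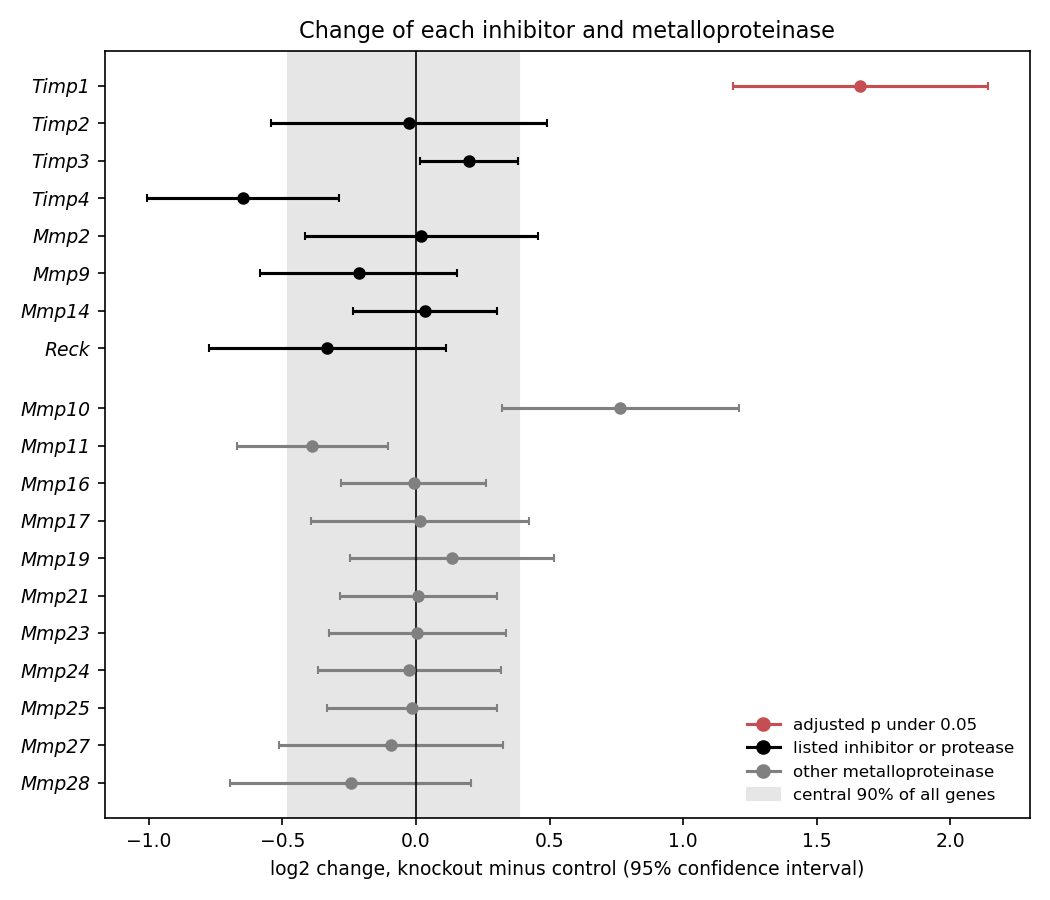
Log2 difference, knockout minus control (horizontal axis), of the 8 measured family genes and, below them, the 11 further MMPs above background, as points with 95% confidence intervals from the limma fit. The shaded band holds the central 90% of all genes. Timp1, in red, is at 1.66 with its interval from 1.19 to 2.14, Timp4 is at -0.65 and Mmp10 at 0.77 without passing the test, and the intervals of Timp2, Mmp2, Mmp9, Mmp14 and Reck include 0.

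The ADAM proteases are membrane-bound relatives that shed surface proteins and are partly inhibited by Timp3. Of 9 listed, 8 lay above background, and none rose or fell by limma (against 2.57% of all genes). An unadjusted p under 0.05 was found for 2 of the 8 (against 16.4%). These 2 were Adam12, at 5.99, 5.77 and 6.37 against 5.27, 5.36 and 5.21 (0.76 ± 0.17, adjusted p = 0.0561), and Adam15 (0.23 ± 0.080, adjusted p = 0.179). The Adam12 groups did not overlap, and it passed in 3 of its 14 alternatives. Adam10 and Adam17, the main sheddases, differed by -0.070 and -0.13. The median of the 8 was -0.012.

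Genes that activate the proteases, bind TIMPs or inhibit other proteases formed a list of 23, with 21 above background and 2 not analysed here. Of the 21, 3 rose (against 1.10% of all genes), 1 fell (against 1.47%) and 17 did not pass. This and the other lists of related genes were chosen with earlier results of these data known. Plaur, which holds urokinase at the cell surface and so focuses plasmin, an activator of MMPs, rose from 8.06, 8.21 and 8.34 in the controls to 9.53, 9.90 and 9.83 (1.55 ± 0.12, adjusted p = 0.000739). Thbs1, encoding the matrix protein thrombospondin 1, which binds Mmp2 and Mmp9, rose from 10.12, 9.96 and 9.78 to 11.06, 11.29 and 11.12 (1.20 ± 0.095, adjusted p = 0.000948). Both had all knockout arrays above all controls and passed in each of their 15 alternatives.

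Itgb3, the beta 3 integrin chain, rose by 0.86 ± 0.14 (adjusted p = 0.0193). Bsg, basigin, a surface protein known to induce MMPs in neighbouring cells, fell from 10.84, 10.75 and 10.79 to 10.43, 10.30 and 10.20 (-0.48 ± 0.072, adjusted p = 0.0137). Itgb3 and Bsg each passed in 11 of 15 alternatives, and both lost the call without knockout 3, without control 3 and against control 1 alone, with adjusted p up to 0.251 and 0.141. Itgb3 also lost it without control 2. Cd63, a surface tetraspanin that binds Timp1, read 9.18, 8.90 and 8.90 against 9.68, 9.41 and 9.32 (-0.47 ± 0.12, adjusted p = 0.0763). The plasminogen activators differed by 0.50 ± 0.16 (Plat, adjusted p = 0.166) and 0.21 ± 0.20 (Plau, adjusted p = 0.671). The median difference of the 21 was 0.072.

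The basement membrane proteins that MMPs cut were measured by 12 genes, all above background. Of these, 4 rose (against 1.10% of all genes), 0 fell (against 1.47%) and 8 did not pass. There were 10 positive differences, 8 genes whose groups did not overlap (against 22.0% of all genes) and a median of 0.25. The 2 nidogens, which link laminin to collagen IV, both rose, Nid1 by 0.88 ± 0.073 (adjusted p = 0.00136) and Nid2 by 0.89 ± 0.13 (adjusted p = 0.0137). Nid1 read 11.28, 11.25 and 11.23 in the knockout and 10.22, 10.44 and 10.46 in the controls. Lamb1, a laminin chain, rose by 0.64 ± 0.091 (adjusted p = 0.0113), and Col4a1, a collagen IV chain, by 0.54 ± 0.087 (adjusted p = 0.0178).

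Col4a2, its partner chain, differed by 0.53 ± 0.12 (adjusted p = 0.050001, just above the threshold). Nid1 passed in all 15 alternatives, while Lamb1 passed in 13, Nid2 in 11 and Col4a1 in 9. Against control 1 alone 1 of the 12 genes passed. Col4a1 lost the call without knockout 1, 2 or 3 or control 3, and Nid2 without knockout 3 or control 3, with adjusted p up to 0.0834 and 0.197. The mural marker list was lower in the knockout while these 4 genes were higher, and its part was not tested.

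**Figure D4:**
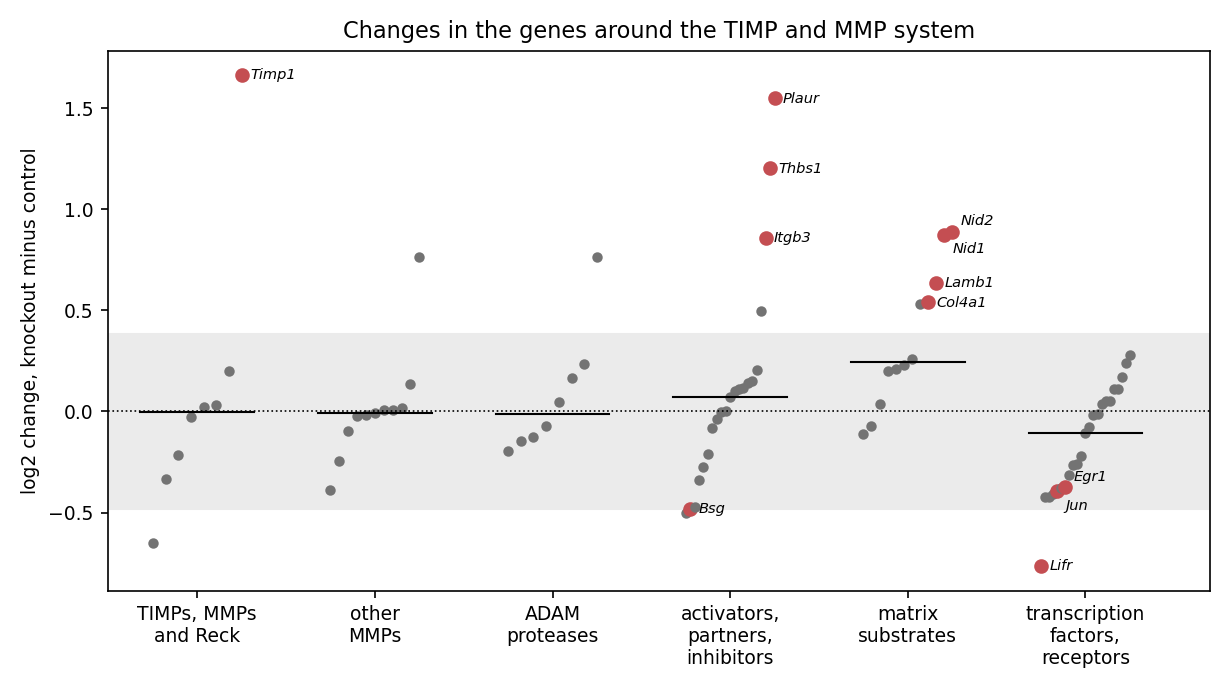
Log2 difference, knockout minus control, of each gene above background in the family and in 5 lists of related genes. Points are genes, coloured and named where they rose or fell, short lines are list medians, and the shaded band holds the central 90% of all genes tested, from -0.48 to 0.39.

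The last list held 28 transcription factors and cytokine receptors known to act on TIMP and MMP genes, of which 23 lay above background, Runx1 lay below it, and Fosl1, Runx2, Nfkb1 and Il11ra1 are not analysed here. None rose (against 1.10% of all genes) and 3 fell (against 1.47%). Lifr, a receptor for leukaemia inhibitory factor, fell by 0.77 ± 0.13 (adjusted p = 0.0196) from 10.82, 10.88 and 11.22 to 10.44, 10.04 and 10.13. Jun, a subunit of AP-1, fell by 0.39 ± 0.075 (adjusted p = 0.0317), and Egr1, an early response factor, fell by 0.37 ± 0.076 (adjusted p = 0.0406). Egr1 and Jun each passed in 7 of 15 alternatives and Lifr in 10, and each lost the call without knockout 2, knockout 3 or control 3, with adjusted p up to 0.185, 0.158 and 0.207. Egr1 and Jun also lost it without knockout 1, and Jun without control 1.

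Socs3, a target and inhibitor of Stat3 signalling, read 10.06, 9.82 and 10.09 against 10.50, 10.53 and 10.22 (-0.43 ± 0.10, adjusted p = 0.0692), and Stat3 itself differed by 0.11 ± 0.077 (adjusted p = 0.539). Signs in the list were 8 positive and 15 negative, with a median of -0.10.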

How the data were processed

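The authors deposited log2 values per probe set for 6 arrays, made with RMA in the oligo package per the submitters' processing notes, with versions not given in the sources used here. Medians of the 41345 probe sets lay between 4.77 and 4.81. Arrays have no read depth, and their number limits the precision. Probe sets with 1 symbol in the platform annotation (23521) were used, while 1814 had several symbols and 16010 none. A gene was represented by its probe set with the highest mean. Background was set from 1429 receptor genes of smell and taste, as the 90th percentile (4.11) of their means.

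Knockout and control were set against each other in a linear model (lmFit, then eBayes with trend) of limma 3.58.1, run in R 4.3.3, with two-sided p-values adjusted by Benjamini-Hochberg over all genes above background at a threshold of 0.05. Tables and plots used pandas 2.3.3 and matplotlib 3.10.9 in Python 3.11.15. The fit was also run on simulated arrays with known changes and noise drawn independently for each gene and array. Shifts shared by many genes on an array were not simulated, so this check does not cover them.

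The members, lists and rules were chosen with earlier results of these data known. Named were every member, each gene of the pathway lists that passed, every MMP above background and the 5 profiles nearest to Timp1. Other listed genes named, and the synapsin genes, were chosen after their values were seen. Alternatives covered filters, normalization, variance model, array weights, probe sets, a replicate block and left-out arrays. Same-numbered arrays deviated with correlations of -0.021, -0.0074 and 0.039, and the other pairs with -0.032 to 0.034. With 3 arrays per group these values cannot exclude a pairing of samples, and the reported fit uses none.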

Additional observations from a re-analysis of the deposited data

How the results depend on the processing

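Against 393 genes called, 139 passed when the variance trend was dropped, and 52 with control 1 as the lone control. The latter was added after the data were seen, and in it control 1 is assumed to vary as the knockout arrays do. Leaving out 1 array gave 91 to 379, with 219, 172 and 91 without knockout 1, 2 and 3, and 194 and 128 without control 2 and 3. The split of calls moved from 42.7% higher to 33.2% higher without control 1, and stayed between 38.8% and 49.3% in the other settings. The replicate block gave 394 genes, with Timp1 as the 1 member called. Of the members, 1 was called in the reported fit, 2 (Timp1 and Timp4) with the stricter filter or with array weights, 1 to 2 with an array left out, and 0 against control 1 alone, where Timp1 was at 1.52. Signs turned for members near 0. With an array left out, Timp2 ranged from -0.24 to 0.26, Mmp2 from -0.18 to 0.16 and Mmp14 from -0.044 to 0.13, and against control 1 alone Mmp2 was at -0.26, Timp2 at -0.61, Reck at -0.76 and Mmp9 at -0.49, none of which passed. The called count ranged from 0 to 1 for the other MMPs (reported 0), 0 to 1 for the ADAMs (0), 2 to 5 for activators and partners (4), 1 to 5 for matrix substrates (4) and 0 to 4 for factors and receptors (3). Mmp9 has no value under the stricter filter, which removes it. The causes were not tested.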
